A study of Mus musculus with 64 samples.

Results

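The 33 genes described here encode the proteins that carry glucose into the heart, break it down to pyruvate and lactate, pass pyruvate to the mitochondria, and store or release glycogen. They were taken as a list of named genes from the table of read counts, by their Ensembl identifiers, out of 48795 gene rows in all. All 33 were found, and 32 of them were among the 16417 genes with enough counts to be tested. Aldoc, a brain-type aldolase, was the gene left out, with 0 to 11 counts in a library. RNA-seq had been made from both ventricles of male C57BL/6 mice with a cardiomyocyte-specific knockout of E4BP4 (CEK) and of their littermate controls (CON). Hearts were taken at 8 zeitgeber times, ZT0 to ZT21 in steps of 3 h, with 4 biological replicates for each genotype and time, so 32 CEK and 32 CON hearts gave 64 libraries. The sources used here do not state the Cre driver, the alleles of the controls or the age of the mice. E4BP4, the product of Nfil3, is a transcriptional repressor that binds D-box elements and is itself under circadian control.

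Glucose enters cardiomyocytes mainly through the insulin-responsive transporter GLUT4, is trapped by hexokinase as glucose 6-phosphate, and then goes to glycolysis or to glycogen. Pyruvate made by glycolysis is reduced to lactate or enters the mitochondria, where the pyruvate dehydrogenase complex turns it into acetyl-CoA, and kinases and phosphatases set how much of that complex is active. The adult heart draws most of its energy from fatty acids, and its use of glucose and its glycogen store are known to vary over the day. Several steps have a muscle isoform and a more widely expressed one, so the balance of isoforms is a property of the tissue.

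Library totals on genes, in units of 1e+06 counts, ran from 7.71 to 45.6 with a median of 26.7, and each tested gene of the list had at least 24 counts in every library. The targeted gene Nfil3 had 0.506 to 4.75 counts per 1e+06 mapped counts (CPM) in CEK hearts, with a median of 1.73, and 4.90 to 31.8 CPM in CON hearts, with a median of 16.2. At every time its highest CEK heart lay below its lowest CON heart. Its log2 fold change, averaged over times, was -3.00 ± 0.067 (SE, n = 32 hearts per genotype, edgeR's quasi-likelihood test with Benjamini-Hochberg adjustment, adjusted p = 3.35e-39). On the first principal component 3 libraries stood apart. Replicate 4 of CEK at ZT0 had 13 of the 33 genes outside the range of the other 61 libraries, replicate 1 of CEK at ZT18 had 18, and replicate 3 of the CON hearts at ZT18 had 12. Differences of Hk1, Hk2, Eno1, Pdk1, Pygb and Aldoa are also given without these 3. The 12 cardiomyocyte markers summed to 88136 ± 5089 CPM in CEK and 93078 ± 5698 CPM in CON hearts (SD, n = 32 each), and none of them was at 0 in any library. Of these 12, 3 were called lower in CEK (Myh6, Actn2 and Atp2a2) and 1 higher (Mybpc3), with a median log2 fold change of -0.060. Among markers of other cells, 11 of 12 macrophage markers were higher in CEK (median log2 fold change 0.31), with sums of 292 to 657 CPM in CEK and 245 to 547 CPM in CON hearts, and none of them was at 0 in any library. Of 11 atrial markers 8 were lower in CEK, with sums of 179.9 to 2429.5 CPM in CEK and 187 to 4276 CPM in CON hearts, and Bmp10 was at 0 in some. In whole tissue, fewer cells of a type and less RNA per cell cannot be told apart.

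Counts divided by exon length set the levels of the genes beside each other. This length joins all annotated exons of a gene, 4133 bases for Gapdh and 1570 for Ldhb. It can exceed that of the transcripts present, so the order depends on the annotation. Reads with several locations were left out, which lowers genes with near-identical models elsewhere, 78 for Gapdh and 1 for Ldhb, by unknown amounts. Undivided, mean CPM in CEK hearts was 2201 for Aldoa, 1670 for Gapdh and 1471 for Ldhb. By the divided measure enzymes of glycolysis and lactate metabolism led the list in CEK hearts, with 937 ± 156 CPM per kb of exon for Ldhb, 813 ± 156 for Eno3, 756 ± 116 for Aldoa and 578 ± 186 for Pgam2 (SD, n = 32). The CON values were 972 ± 152 for Ldhb, 788 ± 134 for Eno3, 754 ± 97.8 for Aldoa and 549 ± 138 CPM per kb for Pgam2. Ldhb is the lactate dehydrogenase subunit typical of heart, and Eno3 and Pgam2 are the muscle forms of enolase and phosphoglycerate mutase. At the other end stood Slc2a1, with 4.31 ± 0.632 CPM per kb in CEK and 4.01 ± 0.667 in CON, and Pdk3, with 1.43 ± 0.262 in CEK and 1.36 ± 0.497 in CON hearts. Aldoc had 0.0555 CPM per kb in CEK and 0.0450 in CON hearts.

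Averaged over the 8 times, 9 of the 32 tested genes passed an adjusted p of 0.05, which was 28.1% of them, while 12% of all tested genes passed. Higher in CEK were Hk1, Ppp1r3c and Eno1, 9.38% of the list against a background of 6.69%. Lower in CEK were Slc2a4, Pdk1, Gys1, Gbe1, Pygb and Phkg1, 18.8% of the list against a background of 5.3%. The list was chosen with earlier results of these data known, and its excess over the background was not tested. The shifts were small, from -0.24 (Phkg1) to 0.30 (Hk1) on the log2 scale, and the 23 genes not called had shifts of at most 0.12 in size. The median log2 fold change of the list was -0.029, beside -0.00072 for all tested genes, and the median size was 0.082 beside 0.0715. With a score of the macrophage markers as a covariate, which itself differed between genotypes (4.16 ± 0.245 in CEK and 3.85 ± 0.242 log2 CPM in CON, SD, n = 32 each), 1 gene stayed higher, Hk1, and 0 were lower. Calls also fell over all 16417 tested genes with this covariate, from 1968 to 653, of which 344 were higher and 309 lower.

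**Figure D1:**
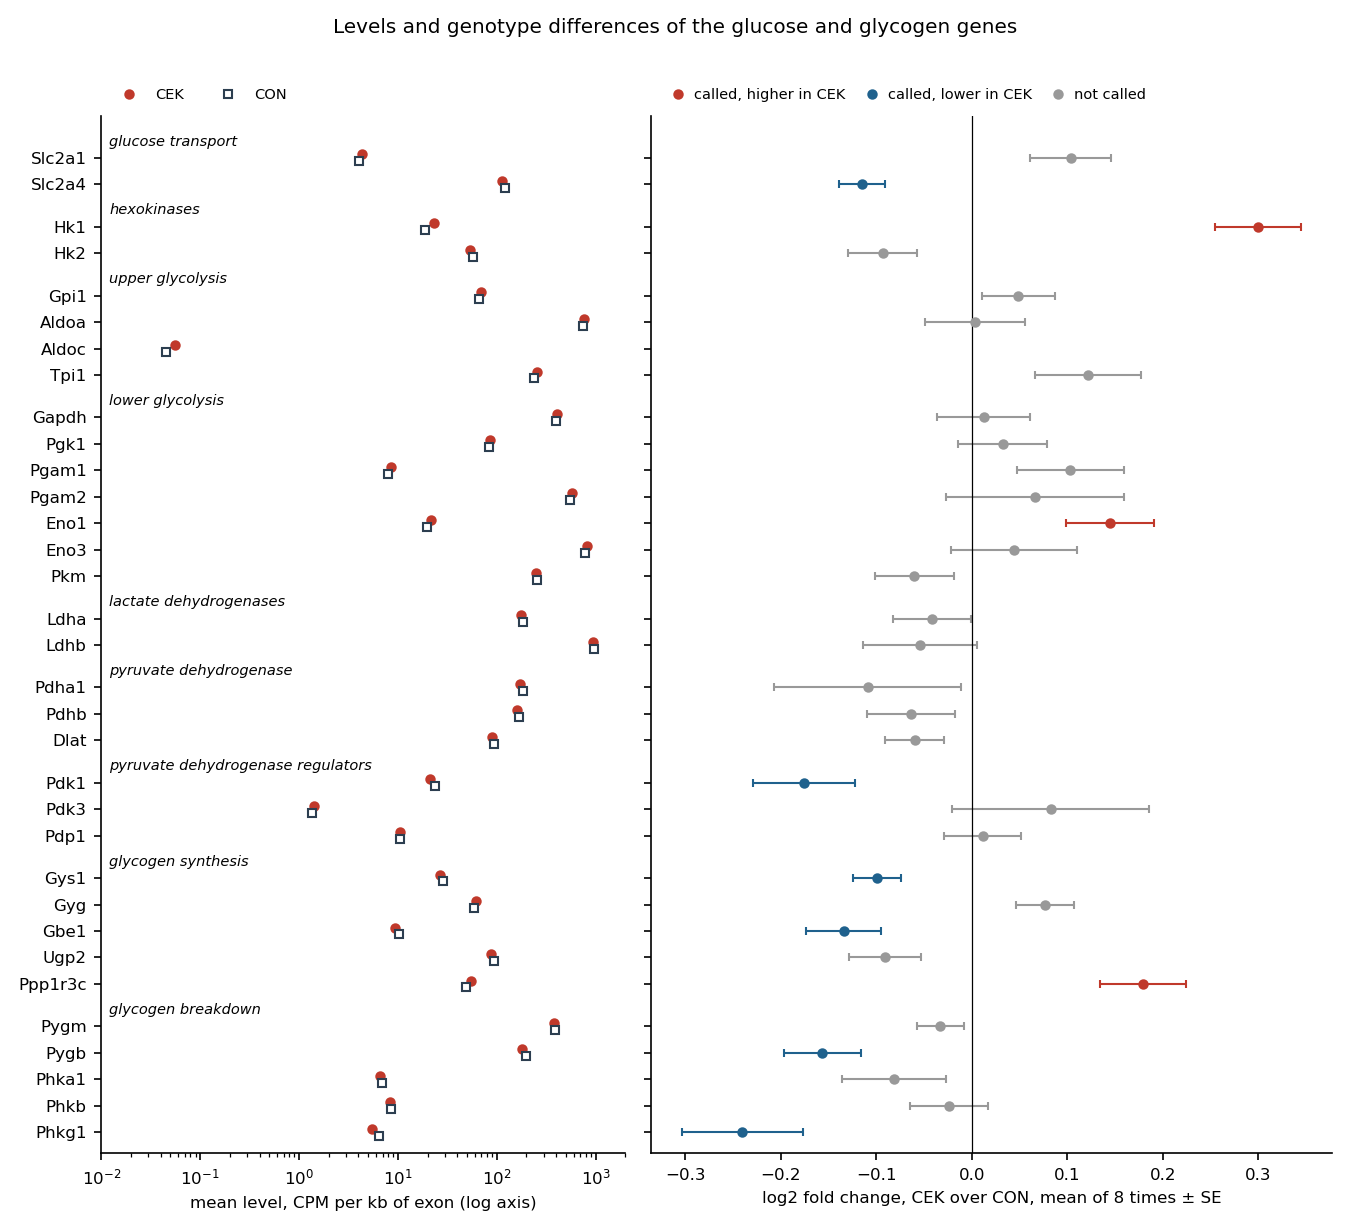
Left, mean level of each of the 33 genes in CPM per kb of exon on a log axis, for CEK (filled circles) and CON (open squares) hearts, grouped by step of the pathway. Right, log2 fold change of CEK over CON averaged over 8 times with its SE, for the 32 tested genes; the 3 genes called higher are red, the 6 called lower are blue, and the shifts lie between -0.24 and 0.30.

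The glucose transporters gave 1 call in 2. Slc2a4 (ENSMUSG00000018566.14, chromosome 11, 69942539 to 69948188 in GRCm38, minus strand), which encodes GLUT4, had 332 to 444 CPM in CEK hearts with a median of 389.7, and 377 to 478 CPM in CON hearts with a median of 428. The ranges overlapped, and 27 of 32 CEK hearts lay under the CON median. Without the 3 libraries that stood apart the lowest CEK heart had 346 CPM. On the log2 scale the fold change was -0.11 ± 0.024 (SE, adjusted p = 0.000496), a change of -7.65%, and it was below 0 at all 8 times. At ZT15 the 4 CEK hearts had 423, 424, 433 and 440.0 CPM, below the 443, 452, 461 and 478 CPM of the 4 CON hearts, and 6.6% of all tested genes did not overlap at ZT15. Slc2a1, which encodes the basal transporter GLUT1, had 10.7 to 21.2 CPM in CEK hearts with a median of 14.8, and 9.93 to 21.6 CPM in CON hearts with a median of 13.5. The log2 fold change of 0.10 ± 0.043 did not pass (adjusted p = 0.109), and it passed without CON at ZT3 replicate 2 (0.13, adjusted p = 0.0208).

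Of the 2 hexokinases Hk1 was called. Hk1 (ENSMUSG00000037012.18, chromosome 10, 62268855 to 62379908, minus strand) is the hexokinase of most tissues, and Hk2 is the insulin-regulated one of muscle. Hk1 had 127 to 240.4 CPM in CEK hearts with a median of 199, and 98.1 to 196 CPM in CON hearts with a median of 163. In CEK, 30 of 32 hearts lay above the CON median, and the other 2 were libraries that stood apart. Without the 3 libraries that stood apart the lowest heart had 167 CPM in CEK and 139 CPM in CON. At ZT3 the 4 CEK hearts had 191, 212, 225 and 237 CPM, above the 145, 166, 178 and 180.1 CPM of the 4 CON hearts. The 2 genotypes did not overlap at ZT3, ZT6, ZT9, ZT15 and ZT21, times at which 2.97, 3.5, 4.26, 6.6 and 2.89% of all tested genes did not overlap. The log2 fold change of Hk1 was 0.30 ± 0.045 (SE, adjusted p = 1.38e-06), a level 23.1% higher, and it was 0.31 (adjusted p = 2.21e-11) without the 3 libraries. It lay above 0 at all 8 times, between 0.22 at ZT9 and 0.37 at ZT3. It was 0.33 (adjusted p = 0.000145) with the macrophage score as a covariate. Hk2 had 275 to 429 CPM in CEK hearts with a median of 318, and 286 to 433 CPM in CON hearts with a median of 332. It was lower in CEK in value at all 8 times, but its log2 fold change of -0.09 ± 0.036 did not pass (adjusted p = 0.0807). It passed without the 3 libraries (-0.12, adjusted p = 0.0116).

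Sequences before the transcription start sites are shown for Hk1, which had the largest difference, and for Ppp1r3c and Pgam1, which had the largest rhythms described below. They come from RefSeq (GRCm38.p6) and run from 250 bases before to 50 bases after a start, and 31 of the 33 genes, all but Slc2a4 and Pdp1, had 41 such windows. Capitals mark the E-box CACGTG bound by clock factors, the D-box forms TTATGTAA and TTACGTAA bound by E4BP4, and ACGTG, the core of a hypoxia response element, which also lies within CACGTG. Both strands were searched.
Hk1, upstream start, chr10:62379859-62380158: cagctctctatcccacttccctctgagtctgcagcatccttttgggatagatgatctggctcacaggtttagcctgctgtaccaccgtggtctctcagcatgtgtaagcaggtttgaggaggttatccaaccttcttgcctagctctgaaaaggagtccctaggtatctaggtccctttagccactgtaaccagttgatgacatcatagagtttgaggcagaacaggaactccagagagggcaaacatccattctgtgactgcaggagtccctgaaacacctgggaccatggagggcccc
Hk1, downstream start, chr10:62340372-62340671: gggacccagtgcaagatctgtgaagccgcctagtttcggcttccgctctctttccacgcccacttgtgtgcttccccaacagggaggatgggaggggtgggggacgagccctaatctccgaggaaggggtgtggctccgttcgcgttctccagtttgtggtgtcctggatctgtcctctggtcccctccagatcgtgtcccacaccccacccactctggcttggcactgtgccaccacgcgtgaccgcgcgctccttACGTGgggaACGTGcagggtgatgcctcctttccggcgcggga
Ppp1r3c, chr19:36736555-36736854: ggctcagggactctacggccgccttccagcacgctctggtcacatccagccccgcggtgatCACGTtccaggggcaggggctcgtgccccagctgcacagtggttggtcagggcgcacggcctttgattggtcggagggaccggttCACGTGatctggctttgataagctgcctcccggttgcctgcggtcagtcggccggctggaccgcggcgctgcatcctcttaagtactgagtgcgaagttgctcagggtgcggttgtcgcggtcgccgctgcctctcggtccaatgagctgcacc
Pgam1, chr19:41911621-41911920: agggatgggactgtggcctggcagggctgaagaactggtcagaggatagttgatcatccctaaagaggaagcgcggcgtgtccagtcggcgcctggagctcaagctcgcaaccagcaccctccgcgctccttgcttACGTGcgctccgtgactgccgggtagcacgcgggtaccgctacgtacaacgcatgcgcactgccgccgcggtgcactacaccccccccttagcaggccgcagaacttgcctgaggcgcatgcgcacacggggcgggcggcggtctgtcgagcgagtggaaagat
All 4 windows lie on GRCm38.p6, the Hk1 and Ppp1r3c ones on the minus strand and the Pgam1 one on the plus strand. Neither D-box form was found in any of the 41 windows, and they occur in 0.938% and 0.119% of the 32851 windows of all genes. CACGTG was found in 3 windows, those of Ppp1r3c, Ldha and Gyg, and in 7.15% of all windows. ACGTG was found in 18 of the 41 and in 19.625% of all. A match of letters is not a bound site, and its absence in a window of 300 bases says nothing of the rest of a gene.

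Upper glycolysis gave 0 calls in 3 tested genes. Gpi1, glucose 6-phosphate isomerase, had 355 to 574 CPM in CEK hearts and 351 to 526 CPM in CON hearts, with a log2 fold change of 0.05 ± 0.038. Aldoa, the muscle aldolase, had 1689 to 3237 CPM in CEK hearts and 1749 to 3110.4 CPM in CON hearts, with a log2 fold change of 0.0033 ± 0.052 whose sign changed when single libraries were left out. Tpi1, triose phosphate isomerase, was higher in CEK in value at all 8 times, with medians of 715 CPM in CEK and 644 CPM in CON hearts, but its 0.12 ± 0.056 did not pass (adjusted p = 0.164).

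Lower glycolysis gave 1 call in 7, Eno1, the widely expressed enolase. Eno1 (ENSMUSG00000063524.13, chromosome 4, 150236721 to 150248879, plus strand) had 89.6 to 169 CPM in CEK hearts with a median of 115, and 73.1 to 127 CPM in CON hearts with a median of 103. The ranges overlapped, and 28 of 32 CEK hearts lay above the CON median. Eno1 had a log2 fold change of 0.14 ± 0.046 (adjusted p = 0.0274), and it was above 0 at all 8 times. The call rests on single libraries: the adjusted p was 0.0544 without CEK at ZT18 replicate 1, its highest heart, and 0.0564 without the 3 libraries that stood apart. It also lay above 0.05 when CEK at ZT6 replicate 2, ZT12 replicate 4 or ZT21 replicate 3, or CON at ZT15 replicate 1, was left out (0.0502, 0.0517, 0.0515 and 0.0521). Eno1 has 4 near-identical gene models elsewhere in the annotation, and its counts may be too low, because reads with several locations were left out.

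The other 6 genes of lower glycolysis did not pass, among them the dehydrogenase Gapdh and the kinase Pgk1 that follow the triose phosphates, and Pkm, the pyruvate kinase of muscle. Gapdh had 1313 to 2168 CPM in CEK hearts with a median of 1665, and 1164 to 2123 CPM in CON hearts with a median of 1627. Its log2 fold change was 0.01 ± 0.049, with a 95% interval from -0.083 to 0.11. Gapdh has 78 near-identical models, the most in the list. Pgk1 had a log2 fold change of 0.03 ± 0.047, Pgam1 0.10 ± 0.056, Pgam2 0.07 ± 0.093, Eno3 0.04 ± 0.066 and Pkm -0.06 ± 0.041. Pgam2 ran from 273 to 997 CPM in CEK hearts and from 239 to 899.6 CPM in CON hearts, and its highest heart in each genotype was a library that stood apart.

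Neither lactate dehydrogenase subunit gene passed, with log2 fold changes of -0.04 for Ldha and -0.05 for Ldhb. Ldha had 482 to 769 CPM in CEK hearts and 448 to 778 CPM in CON hearts, and Ldhb had 1019 to 1991 CPM in CEK hearts and 1216 to 2267 CPM in CON hearts. The 95% intervals of the log2 fold changes ran from -0.12 to 0.039 for Ldha and from -0.17 to 0.063 for Ldhb.

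The 3 subunit genes of the pyruvate dehydrogenase complex, Pdha1, Pdhb and Dlat, gave 0 calls, with log2 fold changes of -0.11 ± 0.098, -0.06 ± 0.046 and -0.06 ± 0.031. Pdha1 had 156 to 809 CPM in CEK hearts and 267 to 915 CPM in CON hearts, and the libraries that stood apart lay at its low end in both. Of the regulators of the complex, the kinase gene Pdk1 was lower in CEK. Pdk1 (ENSMUSG00000006494.11, chromosome 2, 71873224 to 71903858, plus strand) had 113 to 205 CPM in CEK hearts with a median of 162, and 136 to 268 CPM in CON hearts with a median of 179. The ranges overlapped, and 24 of 32 CEK hearts lay under the CON median. The log2 fold change of Pdk1 was -0.18 ± 0.053 (adjusted p = 0.0200), a change of -11.4%, and below 0 at all 8 times, and -0.16 (adjusted p = 0.0162) without the 3 libraries. Pdk3, another kinase, had 2.01 to 5.46 CPM in CEK hearts and 1.58 to 6.35 CPM in CON hearts and did not pass (0.08 ± 0.10). With the atrial score as a covariate it was 0.28 (adjusted p = 0.000437). Pdp1, the phosphatase that activates the complex, had medians of 46.3 CPM in CEK and 46.9 CPM in CON hearts and a log2 fold change of 0.01 ± 0.040.

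Glycogen synthesis gave 3 calls in 5, in both directions. Ppp1r3c (ENSMUSG00000067279.3, chromosome 19, 36731731 to 36736653, minus strand) encodes a subunit that brings protein phosphatase 1 to glycogen, where it activates glycogen synthase. It had 91.2 to 232 CPM in CEK hearts with a median of 152, and 75.3 to 210.0 CPM in CON hearts with a median of 129. Its log2 fold change was 0.18 ± 0.045 (adjusted p = 0.00417), a level 13.2% higher and above 0 at all 8 times, from 0.01 at ZT12 to 0.31 at ZT0. At ZT0 the 4 CEK hearts had 192, 194, 209 and 232 CPM, above the 160.5, 164, 167 and 176 CPM of the 4 CON hearts, and 5.45% of all tested genes did not overlap at ZT0. Gys1 (ENSMUSG00000003865.16, chromosome 7, 45434844 to 45456619, plus strand), the muscle glycogen synthase, had 109 to 149.9 CPM in CEK hearts with a median of 129, and 118 to 156 CPM in CON hearts with a median of 137. It was lower by a log2 fold change of -0.10 ± 0.025 (adjusted p = 0.0042), a change of -6.62%, and below 0 at all 8 times. Exons of Ruvbl2 on the opposite strand cover 6.5% of its exon bases, and Ruvbl2 had -0.12 ± 0.044 (adjusted p = 0.0584). The strand setting is not stated, so how reads there were assigned, or whether they were left out as ambiguous, is not known. Gbe1 (ENSMUSG00000022707.16, chromosome 16, 70313949 to 70569716, plus strand), the branching enzyme, had 34.2 to 58.2 CPM in CEK hearts with a median of 50.5, and 44.8 to 65.9 CPM in CON hearts with a median of 53.2. Without the 3 libraries that stood apart its lowest CEK heart had 42.1 CPM. The branching enzyme gene had a log2 fold change of -0.13 ± 0.039 (adjusted p = 0.0148), below 0 at 7 of 8 times and 0.03 at ZT9. Gyg, the glycogen primer glycogenin, and Ugp2, which makes UDP-glucose, did not pass, with 0.08 ± 0.030 (adjusted p = 0.0930) and -0.09 ± 0.038 (adjusted p = 0.112). Gyg passed without CEK at ZT3 replicate 3 (0.09, adjusted p = 0.0441).

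Glycogen breakdown gave 2 calls in 5, both lower. Pygb (ENSMUSG00000033059.7, chromosome 2, 150786735 to 150831758, plus strand), the brain-type glycogen phosphorylase, had 511 to 1041 CPM in CEK hearts with a median of 874, and 779 to 1181 CPM in CON hearts with a median of 946. Its log2 fold change was -0.16 ± 0.041 (adjusted p = 0.00526), a change of -10.3%, and below 0 at all 8 times, and -0.14 (adjusted p = 0.00224) without the 3 libraries that stood apart, among which was its lowest heart. The muscle phosphorylase Pygm, with medians of 1226 CPM in CEK and 1251 CPM in CON hearts, had -0.03 ± 0.025. Phosphorylase kinase switches phosphorylase on, and its catalytic subunit gene Phkg1 (ENSMUSG00000025537.12, chromosome 5, 129863421 to 129898549, minus strand) showed the largest fall of the list. Phkg1 had 21.5 to 52.8 CPM in CEK hearts with a median of 36.2, and 27.9 to 59.1 CPM in CON hearts with a median of 40.2. The log2 fold change was -0.24 ± 0.064 (adjusted p = 0.00641), a change of -15.3%, and below 0 at all 8 times. At ZT9 the 4 CEK hearts had 31.2, 34.7, 37.6 and 37.9 CPM and the 4 CON hearts 41.6, 45.9, 52.8 and 56.5 CPM, with no overlap. At that time 4.26% of all tested genes did not overlap. Exons of Sumf2 on the opposite strand cover 9.7% of the exon bases of Phkg1, and Sumf2 had -0.06 ± 0.047 (adjusted p = 0.519). The regulatory subunits Phka1 and Phkb did not pass, with -0.08 ± 0.054 and -0.02 ± 0.041.

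**Figure D2:**
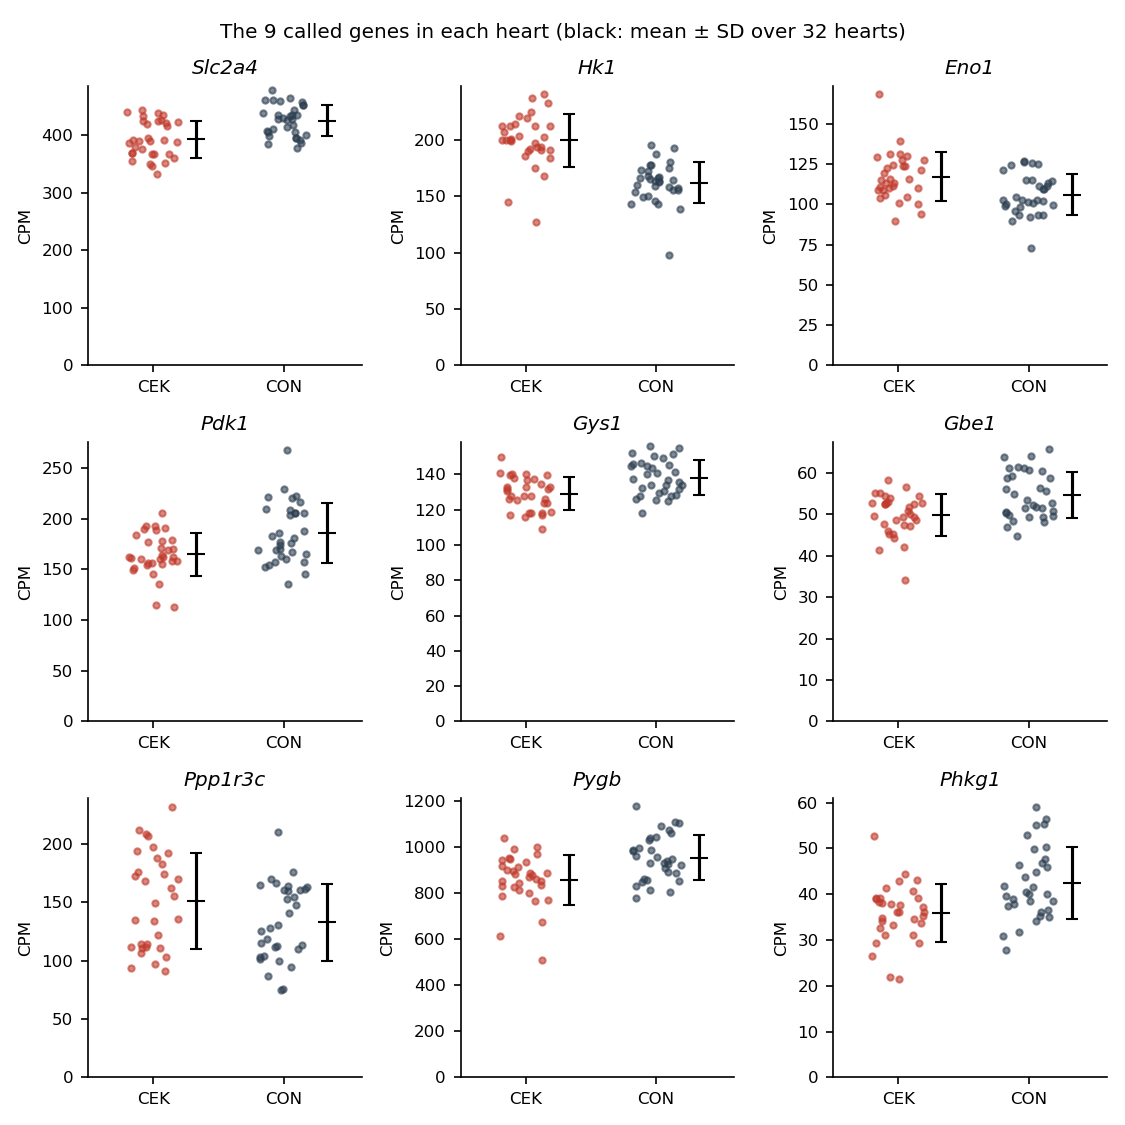
CPM of the 9 called genes in each of 32 CEK hearts (left) and 32 CON hearts (right), with the mean ± SD in black and axes from 0. In all 9 the genotypes overlap, and the fitted levels differ by at most 23.1% (Hk1).

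Without a low-count filter, with scaling, fit and adjustment redone over 34741 genes, Gys1, Gbe1 and Pdk1 no longer passed (adjusted p = 0.0585, 0.0630 and 0.0533). With the macrophage score as a covariate the adjusted p of the called genes other than Hk1 lay between 0.0677 (Ppp1r3c) and 0.666 (Eno1), and the part of macrophage RNA in these results was not tested further.

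Single times were compared with 4 hearts against 4, and 0 of the 32 genes passed at any of the 8 times, with a lowest adjusted p of 0.168 for Slc2a4 at ZT0. The share of all tested genes called was 1.24% at ZT0, 0.7% at ZT3, 0.189% at ZT6, 0.341% at ZT9, 0.11% at ZT12, 0.11% at ZT15, 0.201% at ZT18 and 0.146% at ZT21. The median SE of a single time was between 0.127 and 0.128 on the log2 scale for these genes, and the log2 fold changes of Hk1 at single times were 0.22 to 0.37. Without the 3 libraries that stood apart, Hk1 passed at ZT0 (0.43 ± 0.090, adjusted p = 0.00642), ZT3 (0.37 ± 0.084, adjusted p = 0.0126), ZT6 (0.35 ± 0.084, adjusted p = 0.0481) and ZT21 (0.36 ± 0.084, adjusted p = 0.0476). The number of genes whose 4 CEK and 4 CON hearts did not overlap was highest at ZT15, with 5 (Slc2a4, Hk1, Pdk1, Gyg and Ugp2), against 6.6% of all tested genes at that time. At ZT12 and ZT18 there was none, against 3.61 and 2.53% of all tested genes. Of the 32 genes 10 had 1 sign at all 8 times, and 8 of these were called.

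Isoform balance was compared as the log2 ratio of 2 genes in the same heart, for 7 pairs, by a two-sided permutation test of genotype within times (100000 permutations, Benjamini-Hochberg over the 7 pairs, n = 32 hearts per genotype). The ratio of Hk1 to Hk2 was -0.69 ± 0.25 in CEK and -1.08 ± 0.21 in CON hearts (SD), a difference of 0.39 (adjusted p = 7e-05), with CEK higher at 8 of 8 times. Its unadjusted p of 1e-05 is the smallest this permutation test can give. Per length of exon, Hk1 made 30.4 ± 3.40% of the 2 hexokinase RNAs in CEK hearts and 24.9 ± 2.61% in CON hearts. Its share ran from 19.2 to 35.6% in CEK and from 16.1 to 29.3% in CON hearts, so the genotypes overlapped. The share depends on the joined length of all annotated exons, 8532 bases for Hk1 and 5969 for Hk2. That length can exceed the length of the transcripts present.

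The ratio of Slc2a1 to Slc2a4 was higher in CEK by 0.22 (adjusted p = 0.000105, 8 of 8 times), with GLUT1 at 3.68 ± 0.548% of the pair per length in CEK and 3.18 ± 0.531% in CON hearts. Eno1 over Eno3 was higher by 0.10 (adjusted p = 0.00429, 8 of 8 times), at 2.64 ± 0.224% of the pair in CEK and 2.47 ± 0.208% in CON hearts. Pygb over Pygm was lower by -0.13 (adjusted p = 0.000257, lower at 8 of 8 times), at 32.1 ± 2.63% of the pair in CEK and 34.0 ± 2.02% in CON hearts. These 3 ratios and that of the hexokinases share genes with the calls above and are not separate evidence for them. Their p are adjusted over 7 pairs, while Slc2a1 alone did not pass edgeR's test over all tested genes (adjusted p = 0.109). Of 12 macrophage markers 11 were higher in CEK, and no ratio is given here with the macrophage score as a covariate. The part of macrophage RNA in the ratios was not tested. The percentages of a pair, unlike the log2 ratios, depend on the annotated exon lengths, such as 5379 bases for Eno1 and 1739 for Eno3. Aldoc over Aldoa (0.19, adjusted p = 0.385), Pgam1 over Pgam2 (0.04, adjusted p = 0.761) and Ldha over Ldhb (0.02, adjusted p = 0.653) did not pass.

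**Figure D3:**
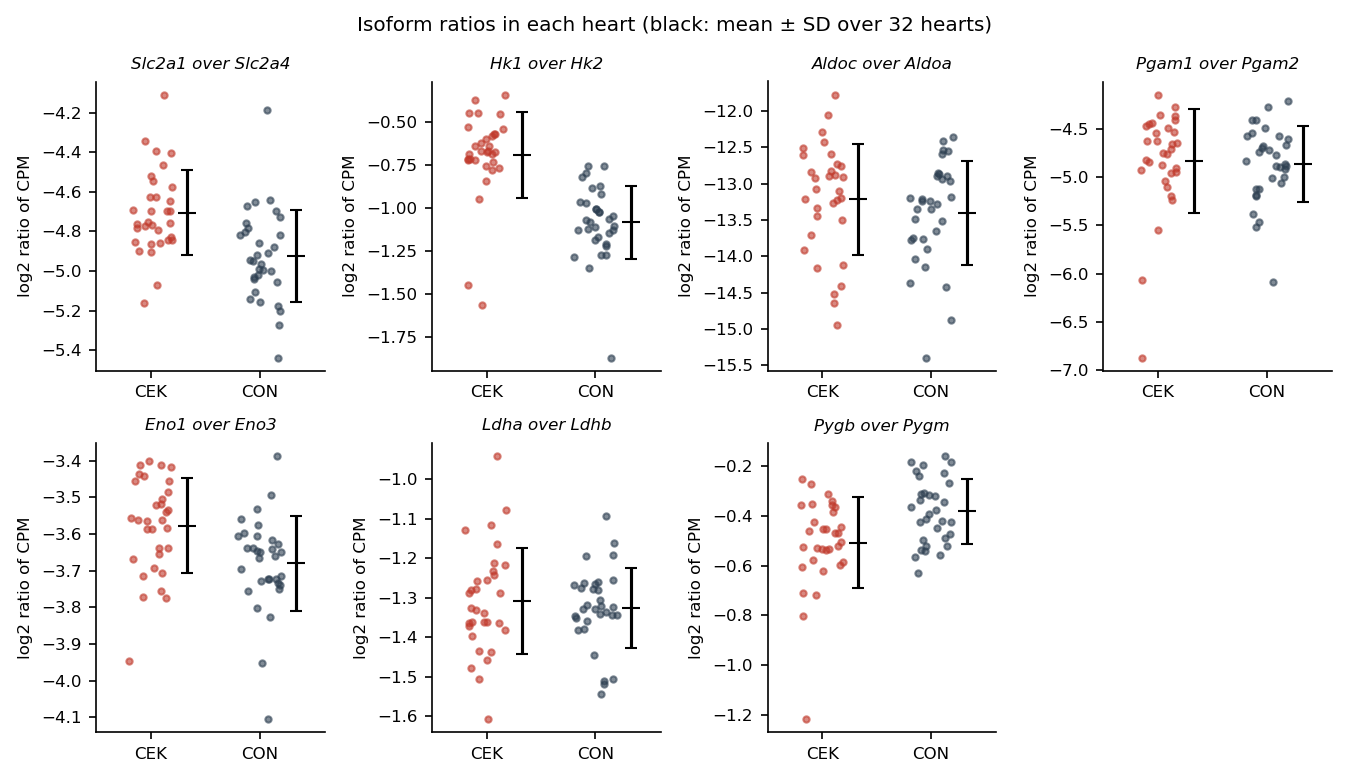
Log2 ratio of CPM of 2 isoform genes in each of 32 CEK hearts (left) and 32 CON hearts (right) for 7 pairs, with the mean ± SD in black; each panel has its own axis, which does not start at 0. The pair of hexokinases differs most, -0.69 in CEK and -1.08 in CON hearts on average, and the 3 libraries that stood apart are its 3 lowest points.

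A 24-h rhythm was fitted in each genotype with a cosine and a sine term. In CEK hearts 6 of 32 genes passed, 18.8% against 15.6% of all tested genes, and in CON hearts 5, which was 15.6% against 14.6%. The same 5 genes, Ppp1r3c, Pgam1, Pdp1, Slc2a4 and Slc2a1, passed in both, against 9.44% of all tested genes, and 26 passed in neither. These shares lie near the background. Median amplitudes of the list, 0.079 in CEK and 0.067 in CON hearts on the log2 scale, lay below those of all tested genes, 0.12 in both.

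Ppp1r3c had the largest rhythm. Its amplitude was 0.47 ± 0.051 in CEK hearts, a 1.92-fold range from trough to peak with the peak at ZT20.8 ± 0.41 h (SE, adjusted p = 5.79e-10), and 0.46 ± 0.051 in CON hearts, a 1.89-fold range with the peak at ZT20.1 ± 0.42 h (adjusted p = 1.10e-09). At ZT9 the 4 CEK hearts had 91.2, 103, 111 and 111 CPM, and the 4 CON hearts 75.3, 75.5, 87.3 and 103 CPM, the lowest mean of the day in both genotypes.

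Pgam1, the widely expressed phosphoglycerate mutase, had an amplitude of 0.30 ± 0.061 in CEK hearts with the peak at ZT19.2 ± 0.79 h (adjusted p = 0.000984), and 0.34 ± 0.062 in CON hearts with the peak at ZT19.2 ± 0.70 h (adjusted p = 0.000193). Hearts at ZT9 had 11.9 to 13.6 CPM in CEK and 9.94 to 13.7 CPM in CON, and hearts at ZT15 had 19.5 to 24.8 CPM in CEK and 17.3 to 22.4 CPM in CON, with no overlap between these times in either genotype. Its muscle isoform Pgam2 did not pass in either genotype (adjusted p = 0.281 in CEK and 0.576 in CON). Pgam1 has 1 near-identical gene model elsewhere, with a match of 765 bases, so its counts and its share of the pair may be too low.

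The other rhythms were shallow. Pdp1 had an amplitude of 0.19 ± 0.038 in CEK hearts with the peak at ZT8.6 ± 0.75 h (adjusted p = 0.000546), and 0.13 ± 0.038 in CON hearts with the peak at ZT6.6 ± 1.2 h (adjusted p = 0.0464). Slc2a4 had 0.11 ± 0.023 in CEK hearts, peaking at ZT13.6 ± 0.77 h (adjusted p = 0.000797), and 0.08 ± 0.023 in CON hearts, peaking at ZT14.0 ± 1.1 h (adjusted p = 0.0366). Slc2a1 had 0.16 ± 0.049 in CEK hearts, peaking at ZT9.2 ± 1.2 h (adjusted p = 0.0488), and 0.17 ± 0.049 in CON hearts, peaking at ZT9.7 ± 1.1 h (adjusted p = 0.0273). Gys1 passed in CEK hearts (0.09 ± 0.024, ZT18.8 ± 1.0 h, adjusted p = 0.0159) and not in CON hearts (0.08 ± 0.024, ZT21.0 ± 1.2 h, adjusted p = 0.0671). It passed in CON hearts when 1 of 6 CON libraries was left out, ZT6 replicate 3, ZT12 replicate 1, ZT18 replicate 3 or 4, or ZT21 replicate 2 or 4 (adjusted p = 0.0256 to 0.0473). Pygb, at 0.0508 in CEK hearts, passed there when any of 27 single libraries was dropped. Leaving out 1 of the 64 libraries at a time ended the CON call of Slc2a4 in 32 cases, that of Pdp1 in 31 and that of Slc2a1 in 7, and the CEK call of Slc2a1 in 43, and the number of CON calls then ran from 2 to 5. When time was fitted as 8 levels, Pdp1 and Slc2a4 no longer passed in CON hearts (adjusted p = 0.586 and 0.462) nor Gys1 in CEK hearts (0.252).

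**Figure D4:**
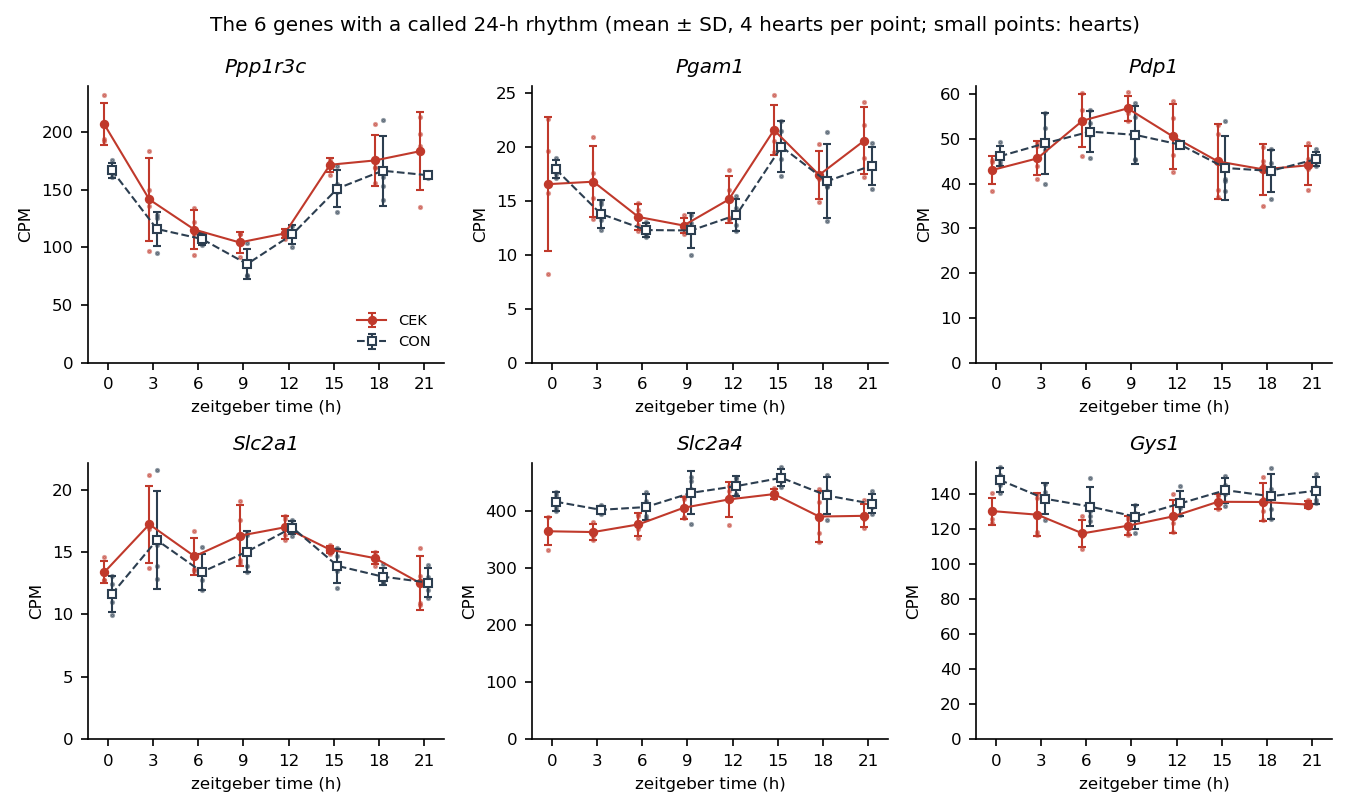
CPM of the 6 genes with a called rhythm against zeitgeber time, as mean ± SD of 4 hearts (CEK filled circles with solid lines, drawn slightly left of CON open squares with dashed lines) and as small points for hearts, with axes from 0. Ppp1r3c is lowest at ZT9 in both genotypes, and the CEK line of Slc2a4 lies below the CON line at every time.

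The rhythms of the 2 genotypes were also compared with each other. No gene of the list passed, 0 of 32 in edgeR's test with 0 at an unadjusted p under 0.05, and 0.00609% of all tested genes passed. For Ppp1r3c the amplitude in CEK minus that in CON was 0.01, for Pgam1 -0.04, for Pdp1 0.06, for Slc2a4 0.04, for Slc2a1 -0.01 and for Gys1 0.02. The lowest unadjusted p of the 6 was 0.168 (Pdp1). A p that misses the threshold does not show that the rhythms were the same.

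Beyond the 33 genes, 68 related genes of sugar and glycogen metabolism were listed and 63 tested. In CEK 10 of these were higher, 15.9% against 6.69% of all tested genes, and 13 lower, 20.6% against 5.3%. This list was chosen with earlier results of these data known. Its excess of calls over the background, here and for rhythm below, was therefore not tested. Differences of the related genes are not given with the macrophage score as a covariate. Entry and phosphorylation of sugars changed in both directions. Lower were the transporter genes Slc2a12 (-0.32 ± 0.060, adjusted p = 8.08e-05) and Slc5a1 (-0.89 ± 0.17, adjusted p = 7.10e-05), a sodium-coupled transporter at a low mean of -1.04 log2 CPM. Higher was the hexokinase gene Hk3 (0.23 ± 0.077, adjusted p = 0.0447), known from myeloid cells.

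Of the phosphofructokinases the platelet isoform Pfkp was higher (0.36 ± 0.041, adjusted p = 2.03e-09) and the muscle isoform Pfkm lower (-0.12 ± 0.030, adjusted p = 0.00286). Pfkfb1, which makes and removes the activator fructose 2,6-bisphosphate, was lower by -0.76 ± 0.064 (adjusted p = 1.44e-13). The lactate and pyruvate transporter Slc16a1 was higher (0.28 ± 0.051, adjusted p = 5.35e-05) and the mitochondrial D-lactate dehydrogenase Ldhd lower (-0.16 ± 0.029, adjusted p = 6.84e-05). The kinase gene Pdk2 (-0.15 ± 0.026, adjusted p = 2.33e-05) and the phosphatase gene Pdp2 (-0.35 ± 0.053, adjusted p = 2.22e-06) were lower, while Pdk4 did not pass (-0.15 ± 0.14).

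Among glycogen genes Phka2 (0.17), Pygl (0.19) and Ppp1r3g (0.52) were higher, and Ppp1r3d (-0.11) and Epm2a (-0.23), the glycogen phosphatase laforin, were lower. Of genes named as phosphoglucomutases in GENCODE M21, Pgm5 (0.14) was higher and Pgm1 (-0.11) lower. A name does not show that the product acts in glycogen metabolism. Of the rest Pgd of the pentose phosphate pathway (0.14) and the hypoxia factor gene Hif1a (0.20) were higher, and Tbc1d1 (-0.37), a regulator of GLUT4 traffic, and the glucose-sensing factor gene Mlxip (-0.22) were lower. In rhythm 18 of the 63 passed in CEK hearts, 28.6% against 15.6% of all tested genes, and 19 in CON hearts, 30.2% against 14.6%, and 0 in the difference. The largest CEK amplitudes were those of Ppp1r3g (0.63, peak ZT20.2), Pfkfb1 (0.58, ZT10.6) and Ppp1r3b (0.55, ZT18.0), whose CON amplitudes were 0.69, 0.37 and 0.54. In CON hearts the largest were Pfkfb3 (0.71, peak ZT8.3), Pdk4 (0.70, ZT2.2) and Ppp1r3g (0.69, ZT17.3), and the CEK amplitudes of the first 2 were 0.50 and 0.48.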

How the data were processed

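The deposited table holds whole-number counts of reads per gene, 1 column a library (64). Per the submitters' processing notes, read files were made with bcl2fastq 2.18.0.12, and the authors also name STAR 2.6.1d, HTSeq 0.11.1 and GRCm38. Annotation release, strand setting and read filters: not given in the sources used. Of 48795 gene rows 48349 matched GENCODE M21. HTSeq's 5 summary rows were left out of every total: reads with several locations made a median of 33.3% of reads, reads in no feature 3.56% and ambiguous ones 3.20%. Such reads lower the counts of genes with near-identical copies at other loci (at least 95% identity over 200 bases), which 10 of the 33 genes have.

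Genes were kept by filterByExpr (minimum count 10, total 15), scaled by TMM and fitted with edgeR 4.0.16 in R 4.3.3, by its quasi-likelihood test. The genotype difference, averaged or at single times, came from 16 group means (48 residual degrees of freedom), and rhythms from a cosine and a sine of 24 h per genotype (58). Benjamini-Hochberg adjustment ran over all 16417 tested genes, with 0.05 as threshold. CPM use the TMM-scaled library sizes, and log2 CPM a prior count of 2. SE are the fold change over the root of F. Scores are the mean log2 CPM of a marker list. Tests were tried on simulated counts whose spread followed expression level alone, with no library standing apart. That check does not cover such libraries or a spread particular to a gene.

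The members and lists were chosen with earlier results of these data known. Named genes are the 33, Nfil3, the related genes past the threshold for the average difference, and their 3 largest amplitudes per genotype. Some genes that this rule names are not reported here. Other settings tried were RLE scaling, counts without mitochondrial genes, DESeq2 1.42.0, an additive fit of time and genotype, all genes with a count, the replicate number as a block, the submitter number or atrial score as a covariate, 8 levels of time, only the libraries of 1 time, and libraries left out. The macrophage score as a covariate was added after seeing the data. Among 96 pairs of libraries within groups the lowest ratio of difference to sampling noise was 4.63, so no library was counted as a copy of another.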

Additional observations from a re-analysis of the deposited data

Results flagged for a closer look

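A heart was flagged where its gap to the nearest of the other 3 hearts of its group was above Dixon's critical value for 4. Of 528 groups of 4 hearts, 33 genes in 16 groups, 17 had such a heart (3.22%), and chance flags about 1 in 20. Of the 17, 5 were in the 3 libraries that stood apart. In CEK at ZT18 replicate 1, Pgam2 had 997 CPM, Eno1 169 CPM and Pdk1 113 CPM, the first 2 above and the last below the other 3 hearts. In CEK at ZT0 replicate 4, Pygb had 511 CPM, below the others, and in CON at ZT18 replicate 3, Gapdh had 2123 CPM, above the others. These values enter the results of Eno1, Pdk1 and Pygb, which the report also gives without the 3 libraries.

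Of the other 12, the CEK ones were low: Gapdh at ZT18 replicate 3 (1514 CPM), Dlat at ZT21 replicate 3 (434 CPM), and Pygm at ZT6 replicate 1 (1124 CPM) and ZT9 replicate 4 (1155 CPM). In CON hearts, Eno1 at ZT12 replicate 4 (109.6 CPM), Ldhb at ZT3 replicate 1 (2047.0 CPM), Gbe1 at ZT3 replicate 3 (60.5 CPM), Pygm at ZT18 replicate 2 (1327 CPM) and Ugp2 at ZT9 replicate 4 (303 CPM) were high. Pkm at ZT15 replicate 1 (1278 CPM), Gyg at ZT6 replicate 4 (123 CPM) and Pygm at ZT21 replicate 2 (1079 CPM) were low.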

How the results depend on the processing

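Under the 10 alternatives the number of genes higher in CEK was 1 with the macrophage score as a covariate and otherwise 2 to 4, and the number lower was 0 with that score, 3 without a low-count filter and otherwise 6 to 8, beside 3 and 6 in the report. Without 1 library at a time they ran from 2 to 4 and from 6 to 7, and Hk2 passed without CEK at ZT0 replicate 4 (-0.11) or CON at ZT6 replicate 2 (-0.11). At ZT0, ZT3, ZT6 and ZT21 the number of called genes was 1 without the 3 libraries that stood apart, each time Hk1, beside 0. The number with a rhythm in CON hearts was 3 with 8 levels of time and 2 without a low-count filter, beside 5. Without 1 library at a time it ran from 2 to 5, and it was 2 without CON at ZT9 replicate 4 or ZT12 replicate 3. It was 3 without CEK at ZT0 replicate 1 or 3, ZT6 replicate 3, ZT9 replicate 1 or ZT21 replicate 4, or without CON at ZT0 replicate 1, 2 or 4, ZT3 replicate 2 or 4, ZT6 replicate 1 or 4, ZT12 replicate 1, 2 or 4, ZT15 replicate 2, 3 or 4, ZT18 replicate 1 or ZT21 replicate 1. Signs changed only for genes that were not called: Aldoa (-0.021 without the 3 libraries, -0.0072 with the atrial and -0.071 with the macrophage score, and -0.022 to 0.020 without 1 library), Pdp1 (-0.0018 with the atrial score and -0.0015 to 0.025 without 1 library), Gapdh (-0.0015 to 0.026 without 1 library) and, with the macrophage score, Gapdh (-0.068), Pgk1 (-0.042), Pgam2 (-0.079), Eno3 (-0.036), Pdk3 (-0.031), Pdha1 (0.047), Phka1 (0.018) and Phkb (0.064). The ratio of Pgam1 to Pgam2 ran from -0.0075 to 0.11 without 1 library. The cause of these changes was not tested. The replicate number as a block gave 3 genes higher and 6 lower, and 7 rhythms in CEK and 5 in CON hearts. The labels do not say that a number marks a shared litter or day, and 20 of 32 pairs with the same number, not all, had a correlation over 0.1 (-0.43 to 0.52), so the numbers were not taken as pairs. The median correlation was 0.152 with the same number and -0.0459 with other numbers, and 15 of 32 CEK libraries correlated best with their own number, a hint of pairing from the data. DESeq2 called 3 genes higher and 6 lower. Depth limits Aldoc, which could not be tested.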
